A study of Mus musculus with 6 samples.

Results

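The p21-activated kinases (PAK), the small GTPases RAC1, RAC2 and CDC42 that activate them, and the PIX exchange factors were examined in mouse bone marrow progenitors that carried either an empty vector or HLX, a homeobox transcription factor. Members were taken by symbol from the array annotation, with 1 probeset per gene. Of 10 genes listed, 9 were matched among 19938 genes on the array: Pak2, Pak3, Pak4, Pak6, Rac1, Rac2, Cdc42, Arhgef6 and Arhgef7. Pak1 was not analysed here. The cells were marrow of young adult wild-type FVB/nJ mice sorted as Lin-Kit+Sca-1+, a fraction that holds stem cells and multipotent progenitors. The control_vector group (3 arrays) received pCAD-IRES-GFP and the HLX_vector group (3 arrays) received the same lentiviral backbone with mouse Hlx. Both groups were kept for 2 days with serum, SCF, IL-6 and IL-3, were infected in 8 µg/ml polybrene, and were then sorted for GFP. The samples are therefore cytokine-cultured descendants of the sorted fraction, and the sources used here do not say whether numbered replicates came from separate mice.

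RAC and CDC42 are molecular switches that are active when bound to GTP. Exchange factors such as the PIX proteins load them with GTP, and active RAC or CDC42 then binds and opens the PAK kinases. Group I PAKs (PAK1, PAK2 and PAK3) are held shut by an autoinhibitory segment until a GTPase binds, whereas group II PAKs, among them PAK4 and PAK6, are regulated differently. In blood cells this circuit controls actin assembly, adhesion, migration and homing, and RAC2 is a GTPase largely restricted to the haematopoietic system.

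RefSeq starts were listed for 6 of the 9 genes, with 12 starts in all (build GRCm38.p6, of the C57BL/6J reference and not FVB/nJ). The arrays measured transcripts and not promoters, so the sequences are context for the levels. The 250 bases before the most upstream start are shown for the PIX paralogues, which lay far apart in array signal, and for Pak4, the single member whose vector groups did not overlap. Capitals mark TAAT or its reverse complement ATTA, a core recognised by many homeodomains.
Arhgef6: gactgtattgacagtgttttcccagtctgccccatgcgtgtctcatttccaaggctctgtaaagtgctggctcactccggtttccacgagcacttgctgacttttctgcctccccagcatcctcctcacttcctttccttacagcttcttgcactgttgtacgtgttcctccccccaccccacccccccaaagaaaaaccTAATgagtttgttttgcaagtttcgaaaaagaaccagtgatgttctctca
Arhgef7: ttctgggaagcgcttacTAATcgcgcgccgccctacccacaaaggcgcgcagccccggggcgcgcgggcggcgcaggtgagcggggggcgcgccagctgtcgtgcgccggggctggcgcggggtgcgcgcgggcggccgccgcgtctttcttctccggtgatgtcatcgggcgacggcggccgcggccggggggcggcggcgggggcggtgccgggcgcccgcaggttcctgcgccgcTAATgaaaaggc
Pak4: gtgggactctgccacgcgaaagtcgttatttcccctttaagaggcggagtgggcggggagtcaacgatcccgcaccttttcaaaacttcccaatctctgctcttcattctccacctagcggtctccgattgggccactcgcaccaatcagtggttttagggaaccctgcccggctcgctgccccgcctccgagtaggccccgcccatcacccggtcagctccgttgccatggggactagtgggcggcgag
These windows lie at chrX:57338730-57338979 on the minus strand, chr8:11727808-11728057 on the plus strand and chr7:28598185-28598434 on the minus strand. The Arhgef7 window had a GC content of 78.0% and 45 CpG dinucleotides, and the Arhgef6 window 49.6% and 5. The Pak4 window had 61.2% and 19, against medians of 52.4% and 6 over 32851 listed starts. TAAT, counted on both strands with overlaps kept, occurred 1 time before Arhgef6, 2 times before Arhgef7 and 0 times before Pak4. It occurred at 5 of the 12 member starts (41.7%) and at 54.9% of all listed starts. GC content and CpG counts differed between starts of a gene. The other Arhgef7 starts had 72.8% and 30, and 48.0% and 2, and the other Arhgef6 start 63.2% and 8. Which start these cells used was not measured.

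The levels are log2 array signals made by the authors with RMA (robust multi-array average). Because probes differ in affinity, the order of genes by signal is an order on this array and not of transcript number. By mean signal over 6 arrays the order was Cdc42, Rac2, Rac1, Pak2, Arhgef6, Arhgef7, Pak4, Pak6 and Pak3. The GTPases and Pak2 lay near the top of the array and formed a close group. Among all genes Cdc42 was at percentile 98.0, Rac2 at 97.4, Rac1 at 97.1 and Pak2 at 96.2. Arhgef6, which encodes alpha-PIX, was at percentile 92.5. Arhgef7, which encodes beta-PIX, was at percentile 56.4, near Pak4 at 48.4 and Pak6 at 43.6. Pak3, a group I kinase best known from brain, was at percentile 10.2. No detection call was used here, so whether Pak3 lay above background was not tested.

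**Figure D1:**
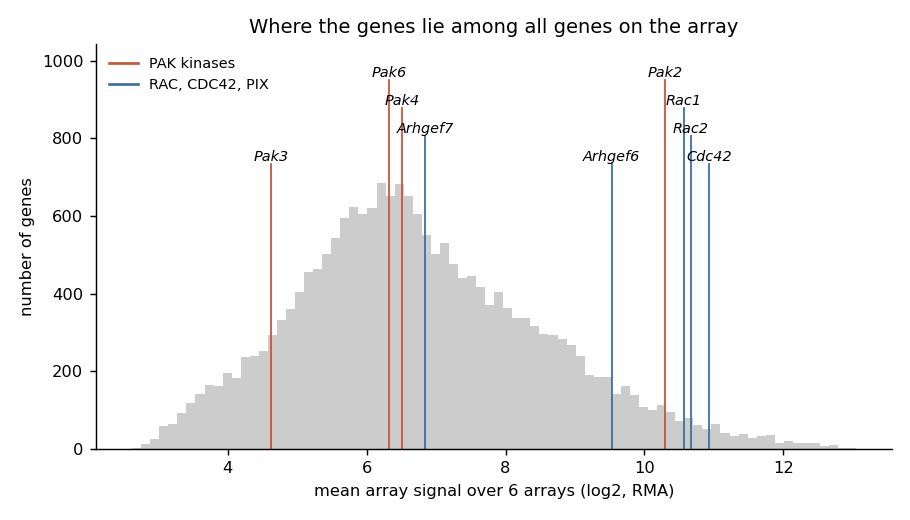
Histogram of the mean array signal (log2, x axis) of all 19938 genes, with the number of genes per bin on the y axis; vertical lines mark the 4 PAK kinases (red) and the RAC, CDC42 and PIX genes (blue), and line height carries no value. Pak2 sits with the GTPases in the upper tail, Pak4, Pak6 and Arhgef7 near the middle, and Pak3 in the lower tail at percentile 10.2.

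Neighbours in this order did not all stand apart. The ranges over 6 arrays overlapped between Cdc42 and Rac2, Rac2 and Rac1, and Rac1 and Pak2. They also overlapped between Arhgef7 and Pak4 and between Pak4 and Pak6. They did not overlap between Pak2 and Arhgef6 (gap of mean signals 0.77), Arhgef6 and Arhgef7 (2.69), or Pak6 and Pak3 (1.71). From Pak2 downward each gene kept its rank on all 6 arrays. The top 3 exchanged places: Rac2 exceeded Rac1 on 3 of 6 arrays, and Cdc42 exceeded Rac2 on 5 of 6.

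For HLX against control vector, no member differed past the threshold. Limma, which moderates each gene's variance by that of all genes, gave 0 of 9 members an adjusted p under 0.05, where all genes together also gave 0 calls (0% of 19938). At an unadjusted p under 0.05 there were likewise 0 of 9 members, and 4.8% of all genes (2.44% higher and 2.36% lower with HLX). For the members the unadjusted p ran from 0.0872 for Pak4 to 0.931 for Cdc42. All 9 of the 95% intervals included 0. Taken as fold changes on the RMA scale, which compresses weak signals, the intervals lay between 0.711 and 1.42, so none reached 1.5-fold either way. The difference was above 0 for 8 of 9 members, against 47.5% of all genes, with a median log2 difference of 0.093 against -0.0078 over all genes. With 1 array left out this count was 6 to 8 of 9, and 6 without HLX replicate 2. After quantile normalization or with array weights it was 7. Signs that turned when 1 array was left out are given with each gene.

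**Figure D2:**
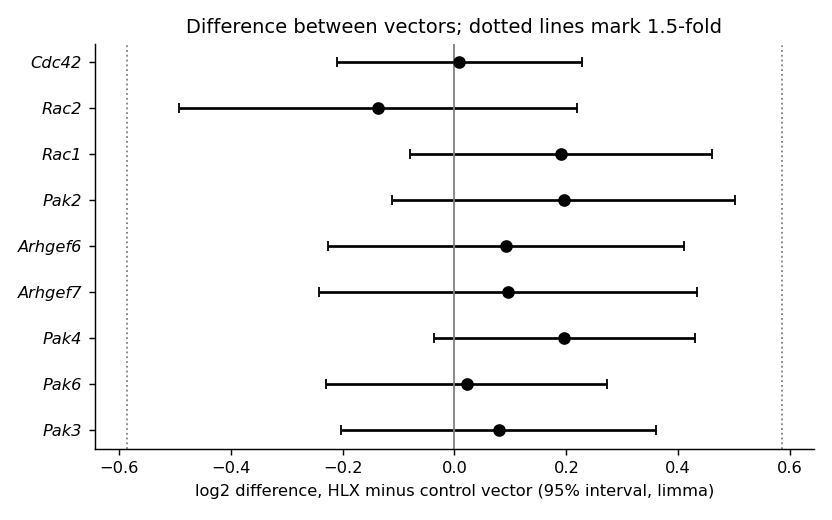
Log2 difference, HLX minus control vector (x axis), for each of the 9 genes (y axis, ordered by signal); points are limma estimates from 3 arrays per group, bars their 95% intervals, and dotted lines mark 1.5-fold. Every bar crosses 0 and stays inside the dotted lines.

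Among the group I kinases Pak2, the member of this group with high signal here, had log2 signals of 10.10, 10.42 and 10.10 on control arrays 1 to 3 and 10.47, 10.50 and 10.23 on HLX arrays 1 to 3. HLX arrays 1 and 2 lay above every control array, while HLX array 3 fell within the control range. The log2 difference was 0.20 ± 0.13 (SE, n = 3 per group), and the limma adjusted p was 1.0. It ranged from 0.142 to 0.302 when 1 array was left out, with the high value without control replicate 2. Pak3 read 4.65, 4.61 and 4.48 with control and 4.82, 4.46 and 4.69 with HLX. The HLX arrays spanned the control range, and the difference of 0.08 ± 0.12 became -0.0029 without HLX replicate 1.

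In group II, Pak4, a kinase that acts on LIM kinase and on cell adhesion, read 6.39, 6.39 and 6.47 with control and 6.55, 6.75 and 6.54 with HLX. Every HLX array lay above every control array. Pak4 was the 1 of 9 members without overlap (11.1%), and 9.19% of all genes had no overlap (4.34% higher and 4.85% lower with HLX), so this share is near the background. The log2 difference was 0.20 ± 0.10 (SE, n = 3 per group; 95% interval -0.04 to 0.43), or 1.15-fold, and the limma adjusted p was 1.0. Without HLX replicate 2, the highest array, it was 0.127. Pak6, a kinase first described as a partner of the androgen receptor, read 6.19, 6.3 and 6.45 with control and 6.29, 6.29 and 6.44 with HLX. These groups coincided, and the difference of 0.02 ± 0.11 had no stable sign, at -0.041 without control replicate 1 and -0.027 without HLX replicate 3.

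**Figure D3:**
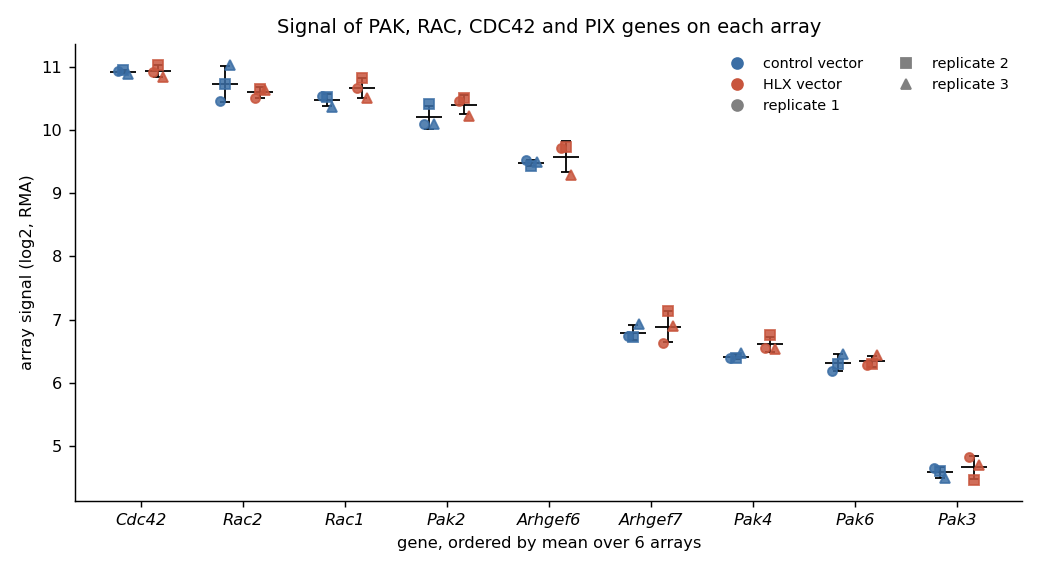
Log2 array signal (y axis) of the 9 genes (x axis, ordered by mean signal) on each array; blue is control vector, red HLX vector, marker shape the replicate number, and black bars the mean ± SD of 3 arrays. Only for Pak4 do the red points all lie above the blue ones, from 6.54 against at most 6.47.

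Of the GTPases, Rac1, the widely expressed RAC, read 10.54, 10.52 and 10.36 with control and 10.66, 10.82 and 10.51 with HLX. HLX arrays 1 and 2 lay above the controls and HLX array 3 among them. The log2 difference was 0.19 ± 0.12 (SE, n = 3 per group), and 0.111 without HLX replicate 2. Rac2, the haematopoietic RAC, was the 1 member below 0. It read 10.46, 10.72 and 11.03 with control and 10.50, 10.66 and 10.64 with HLX. The HLX arrays all fell inside the wide control range. The difference of -0.14 ± 0.15 rested on control replicate 3, without which it was 0.0093, and it was -0.276 without control replicate 1. Cdc42, the GTPase of cell polarity and filopodia, had the smallest SD of the members over 6 arrays, 0.0631. It read 10.94, 10.95 and 10.89 with control and 10.93, 11.03 and 10.85 with HLX, a difference of 0.01 ± 0.09 (95% interval -0.21 to 0.23). Its sign turned without control replicate 3 (-0.0096), without HLX replicate 2 (-0.041) and after quantile normalization (-0.00039).

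Of the exchange factors, Arhgef6 read 9.53, 9.44 and 9.49 with control and 9.71, 9.73 and 9.29 with HLX. The HLX arrays lay on both sides of the tight control group, 2 above and 1 below. The log2 difference was 0.09 ± 0.14 (SE, n = 3 per group). Without HLX replicate 3 it was 0.235, at an unadjusted p of 0.0445 and an adjusted p from limma of 0.781, and without HLX replicate 2 it was 0.0171. Arhgef7 read 6.73, 6.72 and 6.92 with control and 6.63, 7.13 and 6.91 with HLX, where the HLX arrays spanned the control range. Its difference of 0.10 ± 0.14 was -0.026 without HLX replicate 2 and 0.225 without HLX replicate 1.

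One array recurred in these values. HLX replicate 2 held the highest signal of 6 of the 9 members (Cdc42, Rac1, Pak2, Arhgef6, Arhgef7 and Pak4) and the lowest of Pak3. Control replicate 1 held the lowest of 4, counting Pak2 and Pak4. For Pak2 control replicate 3 read the same (10.10), and for Pak4 control replicate 2 was equal after rounding (6.39). These counts were made for the members only and not for all genes. Whether they are particular to the members was therefore not tested. Among the PAK genes Pak4 had the smallest p, and the genes most like it over the 6 arrays were Prc1 (Pearson r 0.993), Mcrip1 (0.986) and Plekhm1 (0.985). Among the GTPases this was Rac1, with Nptx2 (0.991), Hpf1 (0.988) and Ghr (0.986). These are the highest coefficients among all genes, each over 6 arrays, and are a description without a test.

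Around the PAK genes, 6 lists covered other GTPases of the family, other exchange factors, GTPase-activating proteins and dissociation inhibitors, PAK adaptors and regulators, PAK substrates, and further RAC and CDC42 effectors. Of 155 genes listed 144 were measured, and 0 passed the adjusted threshold in limma (smallest adjusted p 0.901). At an unadjusted p under 0.05 there were 10, or 6.94% (4 higher, 6 lower with HLX), against 4.8% of all genes, and without HLX replicate 2 there were 5. The groups did not overlap in 24 (16.7%), against 9.19% of all genes. The median log2 difference of the 144 was -0.0087. The lists were brighter than the array, with median signals from 6.74 to 8.49 against 6.57 over all genes. The shares over all genes given here were not matched for signal.

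The exchange factors held 5 of those 10 genes, 2 higher and 3 lower among 29 measured, with a median of -0.097. Elmo1, the partner of DOCK exchange factors for RAC, read 9.36, 9.50 and 9.58 with control and 9.11, 9.09 and 9.01 with HLX. All HLX arrays lay below all controls, a log2 difference of -0.40 ± 0.10 (SE, n = 3 per group), and the limma adjusted p was 0.901. Prex1, a RAC exchange factor of myeloid cells, read 7.43, 7.19 and 7.48 with control and 7.68, 7.71 and 7.94 with HLX, a difference of 0.41 ± 0.12. Fgd3, of a family of CDC42 exchange factors, differed by 0.52 ± 0.16. Prex1 and Fgd3 also separated the groups, with HLX higher, and both had an adjusted p from limma of 0.932. Among the other GTPases 0 of 14 had an unadjusted p under 0.05, with Rnd2 at -0.16 ± 0.08 and Rhoq at -0.53 ± 0.39. Rhoq read 7.31 on control array 3 and between 5.45 and 6.05 on the other 5.

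Among GTPase-activating proteins and dissociation inhibitors, 1 of 21 had an unadjusted p under 0.05. This was Arhgap1, which switches off CDC42, at 8.48, 8.56 and 8.57 with control and 8.20, 8.21 and 7.82 with HLX (-0.46 ± 0.13, adjusted p from limma 0.901). Its groups did not overlap. Arhgap26 was at -0.41 ± 0.25 and Racgap1, which acts in cytokinesis, at 0.17 ± 0.10. Of 18 adaptors and regulators and 22 substrates and their immediate targets, 0 had an unadjusted p under 0.05. Closest were the kinase gene Btk (0.28 ± 0.13), the PAK phosphatase gene Ppm1e (-0.18 ± 0.10) and Parvb (0.20 ± 0.11) in the first. In the second they were Limk2, whose kinase is activated by PAK and inactivates cofilin (-0.28 ± 0.12), the tubulin cofactor gene Tbcb (0.32 ± 0.15) and Mylk (-0.19 ± 0.10).

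Of 40 further effectors 4 had an unadjusted p under 0.05, 2 in each direction. Iqgap2, a scaffold for RAC and CDC42, differed by -0.40 ± 0.14. Was, the actin nucleation promoter gene activated by CDC42, differed by 0.32 ± 0.11, and Cyba, a subunit of the RAC-dependent phagocyte oxidase, by 0.54 ± 0.21. The fourth was Diaph1, a formin gene, at -0.25 ± 0.11. The adjusted p from limma was at least 0.952 for all of them.

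**Figure D4:**
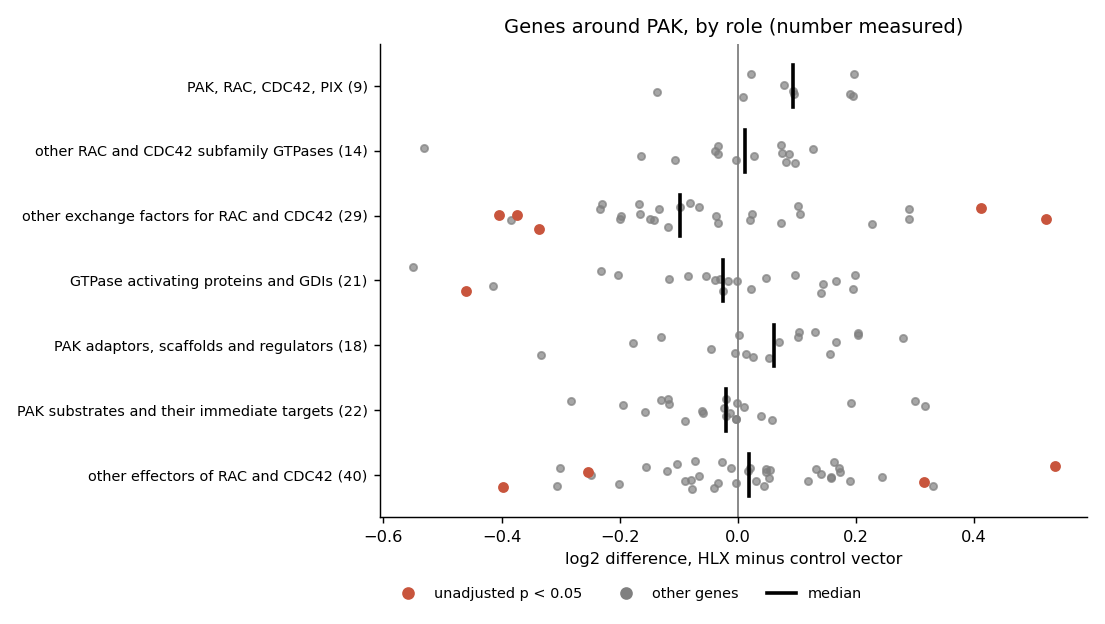
Log2 difference, HLX minus control vector (x axis), of each measured gene in the 9 PAK, RAC, CDC42 and PIX genes and the 6 surrounding lists (y axis, vertical scatter for legibility); red points have an unadjusted p under 0.05 and black ticks are medians. The exchange factors have 5 red points on both sides of 0, and the 9 genes of the top row have none.

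The labels and the makeup of the samples were checked beside these values. Hlx read 6.99, 7.29 and 7.62 on control arrays and 10.75, 9.74 and 10.28 on HLX arrays, 7.75-fold apart, with an adjusted p from limma of 0.0782 and an exact 2-sided permutation p of 0.1, the smallest that 3 against 3 allow. Kit, the receptor used in the sort, was at percentile 91.9 of all genes and Ptprc, the pan-leukocyte marker, at 93.5. The gene of Sca-1, also used in the sort, was not analysed here. Marker lists of other cell types are given by their mean log2 signal per array, beside 47.5% of all genes above 0 and 4.8% at an unadjusted p under 0.05, and their genes were named after the values were seen. Of 13 markers of mature granulocytes and monocytes, 10 were above 0 with HLX, and the list mean was 5.99 to 6.09 with control and 6.23 to 6.57 with HLX. The 4 at an unadjusted p under 0.05 were Lyz2 (0.70), Itgam (0.89), Cd68 (0.51) and Csf1r (1.36). Without them the means overlapped (5.42 to 5.58 and 5.50 to 5.79), with 6 of the 9 kept genes above 0. The groups did not overlap for 7 of the 13 (53.8%), 4 higher and 3 lower with HLX, against 9.19% of all genes. The 3 lower were the neutrophil genes Camp (-0.19), Ly6g (-0.15) and Ltf (-0.09). Ly6g and Ltf had weak signals, at percentiles 12.8 and 16.4. Cd14 (0.61), Adgre1 (0.32), S100a9 (0.17), S100a8 (0.07), Mmp9 (0.06) and Ngp (0.02) of the same list were above 0 with overlap. The list therefore did not move as one. Of 11 stem and multipotent progenitor markers 9 were below 0, and Gfi1b (0.29) and Kit (0.09) were above 0. The list means overlapped, at 8.86 to 9.05 with control and 8.66 to 8.90 with HLX. The groups did not overlap for 3 of the 11 (27.3%), all lower with HLX, against 9.19% of all genes. Of the 11, 2 had an unadjusted p under 0.05, Flt3 (-0.68) and Mecom (-0.81). Erythroid and megakaryocyte markers overlapped between vectors (7.23 to 7.63 and 7.31 to 7.41), with 0 of 9 at that p. The B, T and NK cell list mean was 5.49 to 5.50 with control and 5.30 to 5.47 with HLX, with 1 of 11 at that p, Cd79b (-0.63). Without Cd79b the groups overlapped (5.20 to 5.28 and 5.10 to 5.28), with 2 of the 10 kept genes above 0. The stroma and endothelium list mean was 6.22 to 6.33 and 6.12 to 6.19, with 1 of 11 at that p, Pecam1 (-0.34). Without Pecam1 and Emcn (-0.78), which blood progenitors can also express, the groups overlapped (5.93 to 6.07 and 5.90 to 6.12). Of the 9 kept genes 3 were above 0. In these 3 lists the genes left out were picked after their values were seen. A smaller gap without them was thus fixed by the choice and tells nothing of the kept genes. An array signal has no true zero, so no marker can be called absent. In bulk samples fewer cells of a type and less RNA per cell cannot be told apart, and the part of these markers in the values of PAK, RAC and PIX genes was not tested.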

How the data were processed

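RNA from 5000 to 10000 GFP-positive cells was amplified from 3 ng and hybridised to Affymetrix arrays, per the labels' protocols. The authors deposited 1 log2 value per probeset and array. The submitters' processing notes name RMA and Affymetrix Power Tools. RMA corrects background, normalizes between arrays and compresses weak signals. The probe annotation's build was not stated, and no array coordinates were used. Array medians were 6.32 to 6.40, and 3 arrays per group limit the precision.

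Of 35556 probesets, 21789 had 1 gene symbol, 1621 several and 12146 none in the platform annotation. The brightest probeset per gene by mean over 6 arrays was kept (19938 genes; every member had 1). HLX against control vector was fitted over all genes with limma 3.58.1 in R 4.3.3 (lmFit, eBayes, prior of 3.32 degrees of freedom), 2-sided, with Benjamini-Hochberg adjustment and a threshold of 0.05. SEs are moderated. P-values measure the spread between these arrays, which may be partly technical. On 10 simulated data sets of 19938 genes with 200 changed, the fit recovered 29.8% of 1.5-fold, 69.2% of 2-fold and 98.2% of 8-fold changes. The planted changes were 1.5-, 2-, 4- or 8-fold in equal number, in independent normal noise. Such large changes ease the Benjamini-Hochberg threshold. On the real arrays no gene passed it, and Hlx, at a log2 difference of 2.95, had an adjusted p from limma of 0.0782. The recovered shares therefore do not give the sensitivity of this comparison. Figures used matplotlib 3.10.9.

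Members and lists were chosen with earlier results of these data known. Named genes are all members, Hlx, Kit, Ptprc and, per list, the 3 smallest p (2 where the third exceeded 0.2). Diaph1 and the genes of the cell type marker lists other than Kit and Ptprc were named after their values were seen. For the PAK gene and the GTPase of smallest p, the 3 most correlated genes are named. The alternatives were filters on dim genes, other normalizations, variance priors, array weights, probeset averaging, a replicate block and leaving out arrays.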

Additional observations from a re-analysis of the deposited data

How the results depend on the processing

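All 9 members missed the adjusted threshold in limma under each of the 16 alternatives that tested them (Pak3 and Pak6 were tested in 15), with adjusted p from 0.781 to 1.0. The differences of Pak2, Pak4, Rac1 and Arhgef6 kept their sign throughout. Signs turned for Pak3 (-0.0029 without HLX replicate 1; up to 0.179 with 1 array left out), Pak6 (-0.015 with array weights, -0.041 without control replicate 1, -0.027 without HLX replicate 3, -0.017 without both arrays numbered 1; up to 0.0917), Rac2 (0.0093 without control replicate 3; down to -0.276), Cdc42 (-0.00039 after quantile normalization, -0.0096 without control replicate 3, -0.041 without HLX replicate 2; up to 0.0531) and Arhgef7 (-0.026 without HLX replicate 2; up to 0.225). Members at an unadjusted p under 0.05 numbered 0 to 1 with 1 array left out, the 1 being Arhgef6. A trended and robust prior called 1 gene of the whole array, Hlx (log2 difference 2.95, adjusted p 0.0377 against 0.0782), and no member.

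Among the 11042 genes above the median signal of all probesets, 605 had an unadjusted p under 0.05 and 1118 had no overlap. Over all 19938 genes these were 958 and 1833, so the counts are of unlike totals. With 1 array left out, 3323 to 4805 genes had no overlap, and 6213 without both arrays numbered 1 (an alternative chosen after seeing earlier results), since smaller groups separate more often. Pathway genes at an unadjusted p under 0.05 numbered 5 without HLX replicate 2 against 10, and the cause was not tested. Centring the arrays turned the split at that p from 487 higher and 471 lower to 623 and 356. Members at their mean rank numbered 7 of 9 in control arrays 1 and 3 and HLX arrays 1 and 2 alone, and 9 in control array 2 and HLX array 3.

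Samples with the same replicate number correlated in their deviations at 0.2, 0.0085 and 0.143, and those with unlike numbers at -0.225 to 0.105. Control replicate 2 and HLX replicate 2 each correlated best with another number. The labels do not say that numbers pair samples, so the numbers were not taken as pairs in the main fit. With the replicate as a block the Pak4 difference remained 0.196 with an adjusted p from limma of 0.913, and 0 members passed. At an unadjusted p under 0.05, 626 and 579 genes were then higher and lower, against 487 and 471 without the block.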
